A study of Mus musculus with 14 samples.

Results

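The early lineage regulators of the mouse embryo considered here are the 10 genes Gata4, Gata6, Sox17, Foxa2, Cdx2, Eomes, Elf5, Tfap2c, Hand1 and T, of 22380 protein-coding gene records in the annotation. The genes were taken as a named list, and their methylation was read from every peak that overlapped the gene record or the 5 kb on either side of it. Over the 14 samples 245 peaks met this rule, and they merged into 53 regions of the 153099 regions found in the genome. All 10 genes had a peak in at least 1 sample.

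The samples were 4 Aid+/+ iPS clones and 4 Aid-/- iPS clones at passage 6, 3 ES lines and 3 Aid+/+ MEF cultures at passage 3. Each iPS sample was 1 clone, raised from MEFs with retroviral reprogramming factors, Oct3/4 among them, and grown on gelatin without feeder cells at the end. The iPS clones and the MEFs were male, shared the Nanog-GFP reporter and came from mice whose strain was a mix (C57BL6, DBA and 129S4), and the Aid-/- clones had in addition a disrupted Aid gene. The ES lines were RF8 (129SV, male, replicate 1), MG1.19 (129Ola, male, replicate 2) and B6 ES (C57BL6, replicate 3), so the ES samples differed in strain from each other and from the iPS clones. Aid is an enzyme that removes the amine group from cytosine and was studied as a candidate in the loss of DNA methylation during reprogramming. The values below are of captured methylated DNA alone, and RNA was not analysed here.

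These genes encode transcription factors that act at the first branch points of the embryo. Cdx2, Eomes, Elf5, Tfap2c and Hand1 act in the trophoblast, which forms the placenta. Gata4, Gata6, Sox17 and Foxa2 act in primitive and definitive endoderm. T (Brachyury) marks the primitive streak and the mesoderm that leaves it, and Eomes is used there again. In pluripotent cells such genes are held silent largely by Polycomb proteins on CpG-rich promoters that stay unmethylated, whereas Elf5 is known as a gene whose promoter is methylated in the embryonic lineage.

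MBD-seq pulls down DNA with a protein that binds methylated CpG dinucleotides, so a peak needs both methylation and enough CpGs. A level is given as the tags in peaks of a locus per 1000000 filtered tags of the sample (RPM), filtered tags being those left after duplicates were removed, and a sample with no peak counts as 0. Filtered tags numbered between 6654272 and 19603100 per sample. The share of them that lay in peaks was 49.6% to 62.5% in the iPS clones, 16.7% to 54.5% in the ES lines and 19.2% to 27.4% in the MEFs. Among genes with a peak in both groups compared, the median locus was at 0.337 times the Aid+/+ iPS level in MEFs and at 0.601 times in ES lines. It was at 0.948 times in Aid-/- iPS clones, and changes are read against these medians. Loci without a peak in a whole group, such as T in MEFs, do not enter the medians. ES replicate 2 had the fewest peaks (33694) and ES replicate 3 had 106385. By the name prefix and MACS version in their headers the peak files fell into 4 sets, called runs here, and whether a set shared its sequencing or only its peak calling is not given in the sources used here. One of them, called run A here, took in 1 Aid+/+ clone (replicate 1) and 3 Aid-/- clones (replicates 1, 2 and 4), and it was the only run with iPS clones of both genotypes. No run held Aid+/+ iPS clones together with ES lines or MEFs, so in those comparisons run and cell type cannot be told apart. Of the marker promoters, that of Nanog had a peak in 2 MEFs and that of Zfp42 in 3, and neither had one in an iPS clone or ES line. Tdgf1 had a promoter peak in 1 MEF and Dppa3 in no sample. Pou5f1, of which the iPS clones also carry a retroviral copy, had a promoter peak in all 8 iPS clones and in no ES line or MEF. Of the fibroblast genes, Col1a1 had a promoter peak in every iPS clone, in 1 ES line and in no MEF, and Thy1, Col1a2, Col3a1 and Twist2 had none in any sample.

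Stretches of 200 bases around peak summits are shown for 6 regions, 1 or more of each kind described below. They are read 5′ to 3′ on the strand of the gene from NCBI build 37 (mm9), and the capitals mark CpG dinucleotides. The Gata4 and T windows come from regions with peaks in iPS clones and no peak in MEFs, the Tfap2c exon window from a region shared by 13 samples, the Hand1 and upstream Tfap2c windows from regions with a peak in every MEF, and the Cdx2 window from a promoter region found in run A alone.
Gata4 intron at chr14:63886802-63887001, minus strand: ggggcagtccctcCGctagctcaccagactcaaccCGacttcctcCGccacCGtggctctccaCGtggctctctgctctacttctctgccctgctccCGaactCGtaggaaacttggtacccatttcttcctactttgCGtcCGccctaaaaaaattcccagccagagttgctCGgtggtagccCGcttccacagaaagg
T coding exon at chr17:8628924-8629123, plus strand: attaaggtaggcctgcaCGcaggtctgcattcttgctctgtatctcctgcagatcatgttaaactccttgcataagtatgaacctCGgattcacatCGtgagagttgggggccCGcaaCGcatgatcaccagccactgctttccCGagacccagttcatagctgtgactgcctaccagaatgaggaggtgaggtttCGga
Tfap2c coding exon at chr2:172381525-172381724, plus strand: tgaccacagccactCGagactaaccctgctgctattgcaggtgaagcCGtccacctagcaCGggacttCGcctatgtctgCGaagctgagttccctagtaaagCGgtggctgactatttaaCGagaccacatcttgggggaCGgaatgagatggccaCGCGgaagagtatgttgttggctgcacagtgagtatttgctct
Hand1 coding exon at chr11:57644806-57645005, minus strand: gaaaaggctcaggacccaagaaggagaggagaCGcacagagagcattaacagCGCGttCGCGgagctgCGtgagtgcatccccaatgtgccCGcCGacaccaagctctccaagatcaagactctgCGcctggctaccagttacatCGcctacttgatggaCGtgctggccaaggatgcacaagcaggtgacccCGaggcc
Tfap2c upstream at chr2:172371289-172371488, plus strand: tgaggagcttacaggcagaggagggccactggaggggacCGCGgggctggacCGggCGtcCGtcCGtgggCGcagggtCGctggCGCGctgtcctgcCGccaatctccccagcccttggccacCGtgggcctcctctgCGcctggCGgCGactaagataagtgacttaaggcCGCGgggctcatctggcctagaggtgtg
Cdx2 coding exon at chr5:148118080-148118279, minus strand: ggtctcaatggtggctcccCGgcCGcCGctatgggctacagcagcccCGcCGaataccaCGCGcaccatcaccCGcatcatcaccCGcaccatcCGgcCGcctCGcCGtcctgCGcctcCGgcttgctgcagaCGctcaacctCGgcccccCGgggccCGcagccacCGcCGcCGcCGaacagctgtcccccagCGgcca
The window in the Gata4 intron held 11 CpGs, that in T held 7 and that in the shared Tfap2c region held 10. The windows in the MEF regions held 12 in Hand1 and 17 upstream of Tfap2c, and the Cdx2 window held 24.

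Peaks were spread unevenly over the genes. Gata4, Gata6, Elf5 and Tfap2c together held 172 of the 245 peaks (70.2%), and Sox17, Foxa2 and Cdx2 held 19 (7.76%). By place, 169 peaks overlapped a gene body outside the promoter, 23 overlapped a promoter (1 kb on either side of the annotated gene start), 44 lay in the downstream and 9 in the upstream flank. Of the 53 merged regions, 30 lay in bodies, 10 over promoters, 9 downstream and 4 upstream. A peak of a single sample made up 14 regions (26.4%, against 21.9% of all regions), and 2 regions, in Tfap2c and downstream of Elf5, had a peak in all 14 samples (3.77%, against 10.3%). A peak in all 8 iPS clones was found at 9 regions (17.0%, against 33.1% of all regions), and none of these 9 overlapped a promoter. How many such regions of the whole genome overlap a promoter was not counted.

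**Figure D1:**
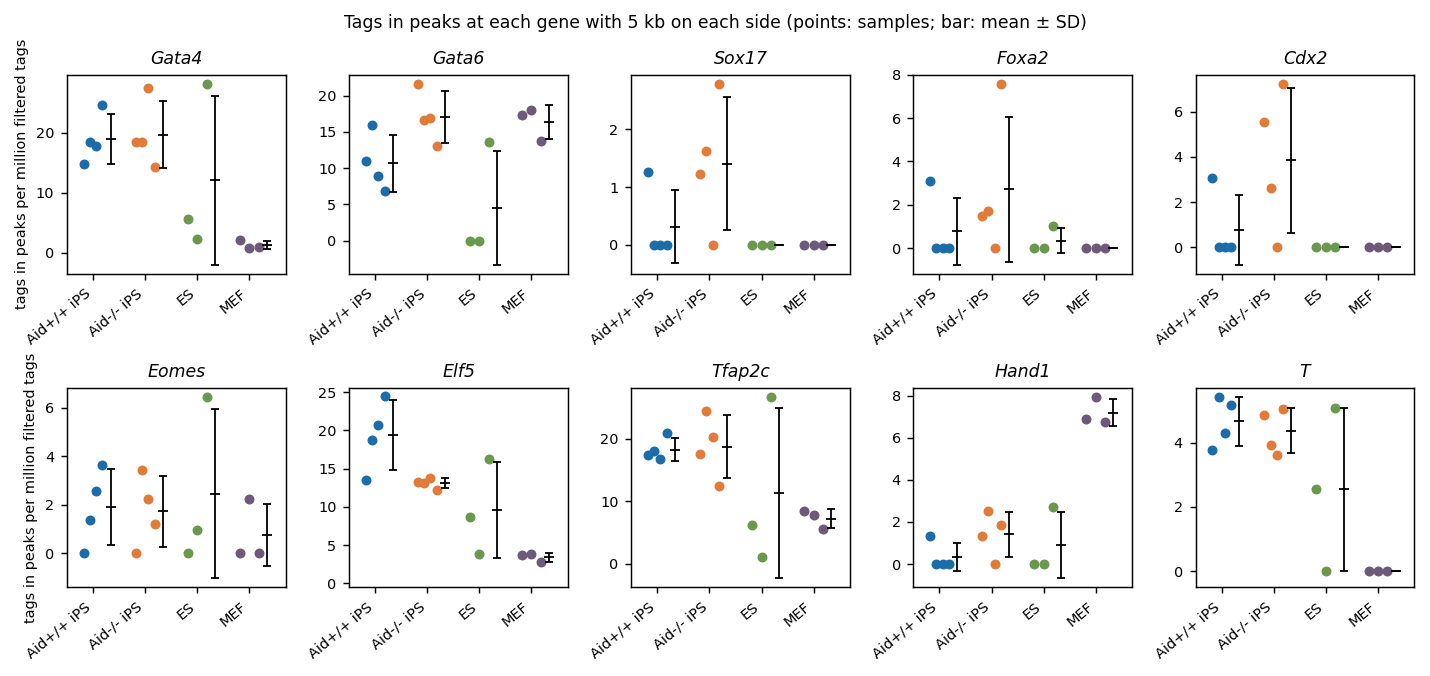
Tags in peaks in RPM at each of the 10 genes with 5 kb on each side, by group. Coloured points are samples and the black bar is the mean ± SD. Gata4, Elf5, Tfap2c and T were higher in every Aid+/+ iPS clone than in every MEF, Hand1 was higher in every MEF, and Sox17, Foxa2 and Cdx2 had values above 0 in 5 samples at most.

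The comparison of MEFs with Aid+/+ iPS clones asks how the loci differ between the fibroblasts and the pluripotent clones made from such cells. At 5 of the 10 loci the groups did not overlap. Hand1, a factor of trophoblast and heart, was higher in MEFs, and Gata4, Elf5, Tfap2c and T were lower. Over all 17681 loci with a peak in at least 1 of the 7 samples, 6.6% were higher and 58.4% lower in MEFs by the same rule, so that 1 higher and 4 lower of 10 stood beside a background in which most loci were lower. With 4 samples against 3 the smallest p that the exact two-sided permutation test allows is 0.0571, so none of these differences could reach 0.05, and all 5 loci were at that value. When an equal number of peaks was used in every sample, Hand1, Elf5 and Tfap2c were still apart, and Gata4 and T were not. With 10 kb flanks Cdx2 was apart as well, with a difference in means (MEF minus Aid+/+ iPS) of -4.29 RPM.

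Gata4, a zinc finger factor of endoderm and heart, lay on chromosome 14 (63817759 to 63890529, minus strand), with a cluster of inner starts at 63864085 to 63864108. Its level was 14.8, 18.4, 17.8 and 24.6 RPM in the Aid+/+ iPS clones and 2.09, 0.856 and 0.988 in the MEFs. The groups were far apart, and the mean of 18.9 ± 4.11 (SD, n = 4) in clones was 14.4 times that of 1.31 ± 0.678 (SD, n = 3) in MEFs, a MEF level of 0.0694 times against the median locus of 0.337 times. The strongest of its 10 regions (63885905 to 63888167, intron, summit 3.63 kb from the gene start) had 7.29, 5.76, 7.29 and 9.34 RPM in the Aid+/+ clones and no peak in any MEF. A second intronic region, at 63866954 to 63867782 and 3233 bases upstream of the nearest inner start, had 1.76 to 3.32 RPM in these clones and again no MEF peak.

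Elf5, an ETS factor that holds trophoblast identity, lay on chromosome 2 (103251845 to 103291146, plus strand). Its locus had 13.5, 18.7, 20.7 and 24.5 RPM in the Aid+/+ iPS clones and 3.72, 3.77 and 2.75 in the MEFs. All MEFs were below all clones, at 0.176 times the clone mean of 19.4 ± 4.58 (SD, n = 4). By covered length or by highest fold enrichment the Elf5 groups overlapped. Most of the MEF signal lay in 1 region downstream of the gene (103294318 to 103295424), which had a peak in all 14 samples. The 200 bases around the summit of this region overlapped an exon of another gene, so its signal need not belong to Elf5. This region had 9.49, 13.0, 10.6 and 9.34 RPM in the Aid+/+ clones and 3.72, 3.77 and 1.48 in the MEFs. Near the inner starts of Elf5, by contrast, a region at 103265192 to 103266208 (intron, summit 609 bases past the start at 103264985) had 1.76, 2.84, 3.53 and 3.63 RPM in the Aid+/+ clones and no peak in any MEF.

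T, the T-box factor of the streak, lay on chromosome 17 (8627288 to 8635361, plus strand) and had 3.77, 5.42, 4.31 and 5.19 RPM in the Aid+/+ clones. The 3 MEFs had no peak at the locus at all. In 2 regions of its body, at 8628576 to 8629464 and at 8634199 to 8635027, all 4 Aid+/+ clones had a peak. These peaks were weak, with 0.88 to 2.70 RPM and no more than 26 tags in any of these clones. At a peak threshold of 1e-10 the T groups overlapped.

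Tfap2c, an AP-2 factor of trophoblast and germ cells listed in the annotation under its older name Tcfap2c, lay on chromosome 2 (172375093 to 172384122, plus strand). Its level was 17.4, 18, 16.7 and 21.0 RPM in the Aid+/+ clones and 8.42, 7.77 and 5.49 in the MEFs. The MEFs were lower throughout, at 0.396 times the clone mean, close to the median locus of 0.337 times. When levels were set over total tags or tags in peaks in place of filtered tags, the groups overlapped, and the length covered by peaks had a higher mean in MEFs. Most of the signal lay in 2 body regions. The one at 172379164 to 172380205 had a peak in all 14 samples, and the one at 172381133 to 172382232 in 13. A further region, 3.7 kb upstream of the gene start (172370938 to 172371741), had 1.48, 1.26 and 1.10 RPM in the MEFs and no peak in any iPS clone or ES line.

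Hand1 lay on chromosome 11 (57642207 to 57646320, minus strand) and was the 1 locus at which every MEF lay above every Aid+/+ clone. The MEFs had 6.89, 7.94 and 6.75 RPM, and the Aid+/+ clones had 1.32, 0, 0 and 0. The only Aid+/+ clone above 0 was replicate 1, whose peak lay downstream of the gene in a region without a MEF peak. All 3 MEFs had peaks in 2 regions of the gene, and MEF replicate 3 had a further one at the gene start. The difference in means, 6.86 RPM, was 2.17 with 10 kb flanks, and the groups did not overlap with either. The region at 57644434 to 57645584, which reaches into the promoter window and overlaps an exon, had 2.14, 3.83 and 2.20 RPM in the MEFs and no peak in any iPS clone, with 1.61 RPM in ES replicate 3. That at 57642527 to 57643360, at the 3′ end of the gene, had 4.74, 4.11 and 2.91 in the MEFs and a peak in 2 Aid-/- clones.

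Gata6, the endoderm factor most like Gata4, lay on chromosome 18 (11052508 to 11085633, plus strand). Its locus total overlapped between the groups, with 11.1, 16.0, 8.86 and 6.85 RPM in the Aid+/+ clones and 17.4, 18 and 13.7 in the MEFs (exact two-sided permutation p = 0.114). The place of the peaks differed. At the front of the gene, 3 regions had a peak in every MEF and in no Aid+/+ clone. These had summits 4.03 kb upstream, 2.51 kb downstream and 6.62 kb downstream of the gene start, and MEF levels of 2.64 to 5.6, 3.88 to 5.33 and 3.08 to 4.51 RPM. At the back of the gene, a region 25.0 kb from the start had a peak in all 8 iPS clones and all 3 MEFs, and one 35.9 kb from the start, past the gene end, in all 8 iPS clones and 2 MEFs. With levels set over tags in peaks, over total tags, as covered length or without the flanks, all Gata6 MEF values lay above all Aid+/+ values, as they did without Aid+/+ replicate 2 or MEF replicate 3.

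**Figure D2:**
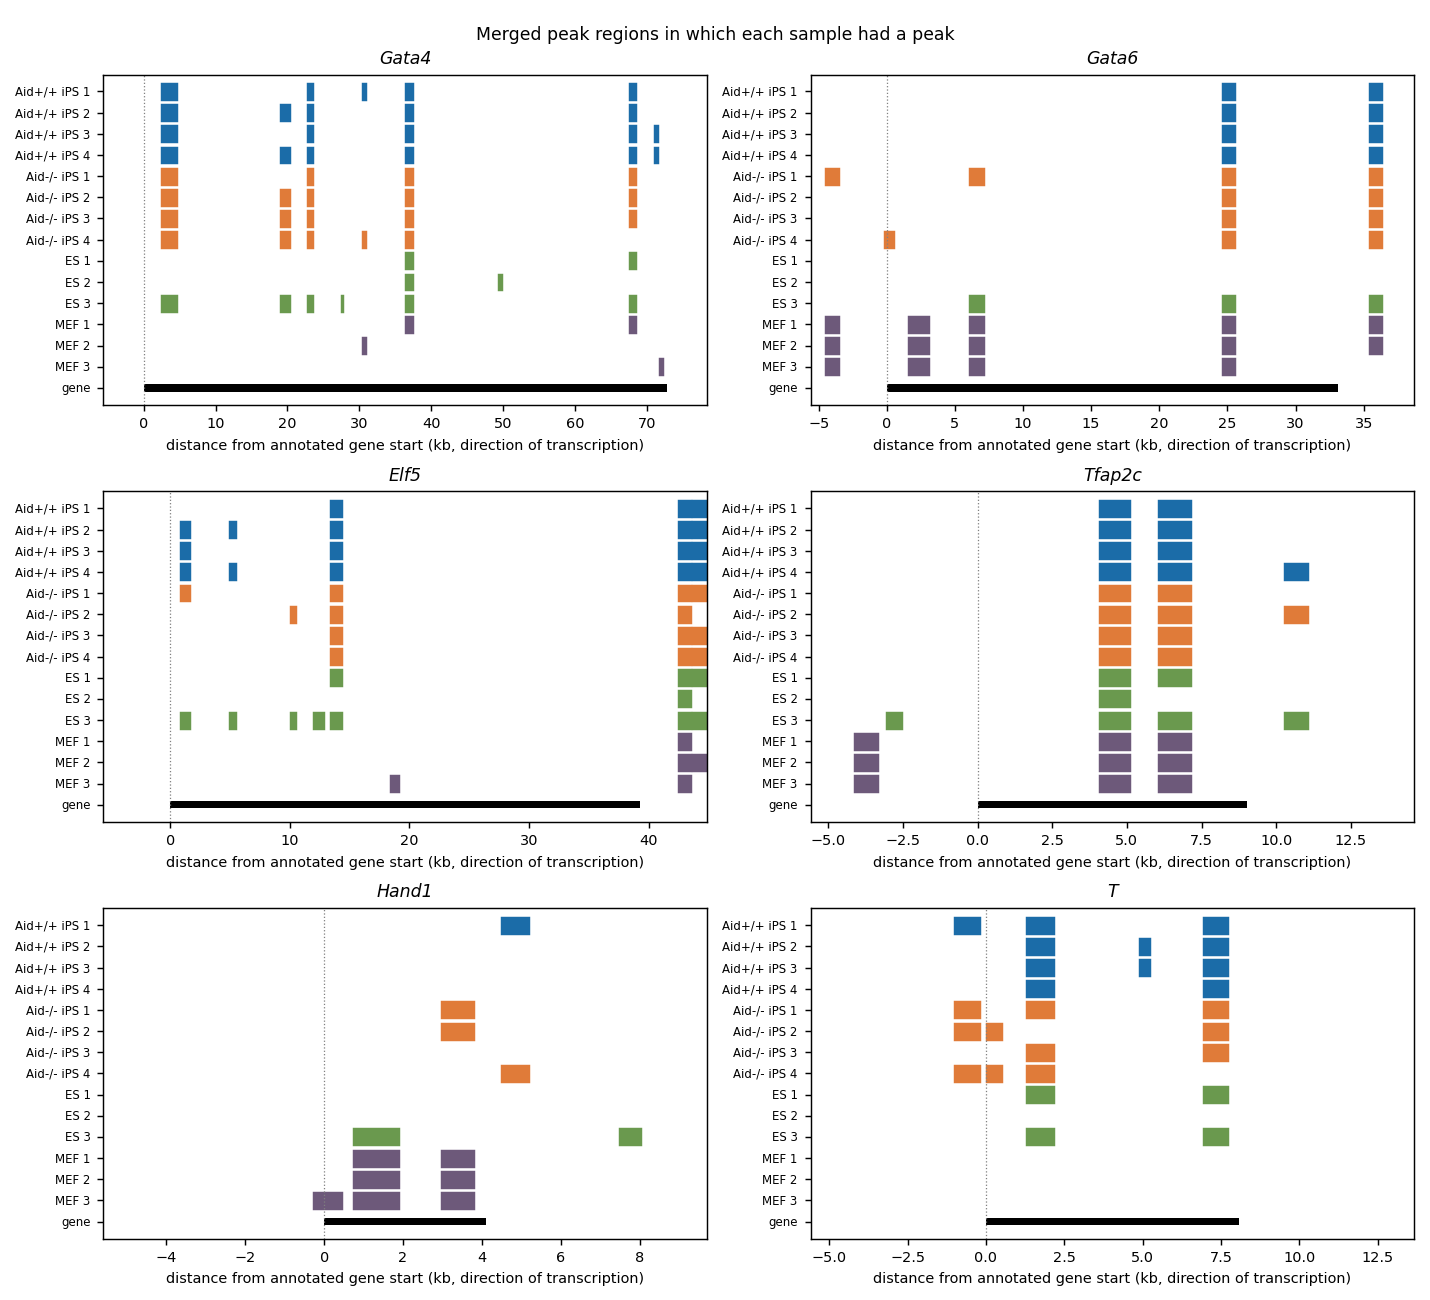
Merged peak regions at 6 of the genes by distance from the annotated gene start in kb, with 1 row per sample. A coloured bar spans a merged region in which that sample had a peak, and the black bar is the gene record. The axes end about 5 kb beyond the gene. MEF rows hold bars at the front of Gata6 and Hand1 and upstream of Tfap2c where Aid+/+ iPS rows hold none, and no MEF row holds a bar in T or at the first Gata4 region.

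Counted by presence, 6 of the 39 member regions with a peak in at least 1 of these 7 samples had a peak in every MEF and in no Aid+/+ clone, and 5 had one in every Aid+/+ clone and in no MEF. Over all 133084 such regions the shares were 1.45% and 13.1%. The 6 were those named in Gata6, Hand1 and upstream of Tfap2c, and the 5 those in Gata4, near the inner starts of Elf5 and in T. When only the 33694 most significant peaks of each sample were used, these counts became 4 and 1. The region test compared tag counts where every sample had a peak, with edgeR's quasi-likelihood test and Benjamini-Hochberg adjustment over all 23412 such regions. It could take in 4 member regions, in Gata6, Elf5 and Tfap2c, and called 0 of them, against 43.2% of all regions (5548 higher and 4557 lower in MEFs, or 1351 and 18464 with filtered tags as library size and no TMM normalisation). Without TMM, all 4 were called, each lower in MEFs. At an unadjusted p under 0.05 there was 1 of the 4, and DESeq2 called 0. The Elf5 downstream region came nearest, with a log2 difference (MEF minus Aid+/+ iPS) of -0.59 ± 0.23 (SE) and an adjusted p of 0.0545. That adjusted p was 0.0383 without Aid+/+ iPS replicate 1.

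The comparison of genotypes asks whether loss of Aid left methylation at these genes. No locus of the 10 stood apart, against 0.799% of 17657 loci higher and 0.799% lower in Aid-/- clones over all genes. No member region had a peak in all clones of one genotype and none of the other, against 0.0368% (Aid-/- alone) and 0.177% (Aid+/+ alone) of 133036 regions. The region test took in 9 member regions, in Gata4, Gata6, Elf5 and Tfap2c, and edgeR called 0 of them, against 0.00196% of 50901 regions. DESeq2 also called 0 of the 9, and 1 of the 9 had an unadjusted p under 0.05.

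That 1 region was the intronic Gata6 region 25.0 kb from the start. It had 7.92, 8.0, 4.39 and 2.91 RPM in the Aid+/+ clones and 13.1, 11.8, 8.12 and 7.77 in the Aid-/- clones. The ranges overlapped, since Aid-/- replicate 4 lay below Aid+/+ replicates 1 and 2. The log2 difference (Aid-/- minus Aid+/+) was 0.84 ± 0.32 (SE), with an unadjusted edgeR p of 0.0179 and an adjusted p of 1.00. Over the 9 regions the lowest adjusted edgeR p was 0.0758 with clone series as a covariate, 0.763 with run as a covariate and 0.150 without Aid+/+ replicate 1. With run as a covariate 0 of the 9 had an unadjusted p under 0.05. For the whole Gata6 locus the Aid-/- clones had 21.7, 16.6, 17.0 and 13.0 RPM, a mean of 17.1 ± 3.55 (SD, n = 4) against 10.7 ± 3.93 (SD, n = 4), with an exact two-sided permutation p of 0.0571. Within run A, Aid+/+ replicate 1 (11.1) lay below the 3 Aid-/- clones of that run (21.7, 16.6 and 13.0), a comparison with 1 sample on one side and no test. The groups did not overlap at Gata6 without Aid+/+ replicate 2, without Aid-/- replicate 4 or without the flanks. Other settings made the Gata6 difference weaker. The exact two-sided permutation p was 0.20 with total tags as denominator, 0.40 by covered length and 0.486 by highest fold enrichment.

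Elf5 went the other way, with 13.2, 13.1, 13.8 and 12.2 RPM in the Aid-/- clones. In Aid+/+ clones, 3 lay well above these values and Aid+/+ replicate 1, at 13.5, lay among them, so the groups overlapped by 1 sample (exact two-sided permutation p = 0.0571). The smallest p this design allows is 0.0286. Within run A, the clones of both genotypes lay between 12.2 and 13.5, with the Aid+/+ clone highest. Without Aid+/+ replicate 1 or Aid-/- replicate 3, or with total tags or tags in peaks as denominator, the groups did not overlap. The Elf5 difference in means (Aid-/- minus Aid+/+) was -6.26 RPM, against -1.74 without the flanks and -4.89 with 10 kb flanks. With only peaks whose summit lay in the locus it was -3.27. The exact two-sided permutation p was 0.257 without the flanks, 0.143 with 10 kb flanks and 0.171 by summit. By covered length the exact two-sided permutation p was 0.171, and by highest fold enrichment the exact two-sided permutation p was 0.657. Gata4 (18.9 ± 4.11 and 19.6 ± 5.52 in Aid+/+ and Aid-/- clones, SD, n = 4 each, exact permutation p = 0.771), Tfap2c (18.3 ± 1.88 and 18.7 ± 5.06, exact permutation p = 0.914) and T (4.67 ± 0.768 and 4.37 ± 0.707, exact permutation p = 0.571) differed by less than the spread between clones. The exact permutation p was 0.257 to 0.80 for Sox17, Foxa2, Cdx2, Eomes and Hand1. These p-values measure the spread between clones, some of which share a clone series.

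Eomes, a T-box factor of trophoblast and streak, was weak throughout, with 0, 1.38, 2.59 and 3.63 RPM in the Aid+/+ clones and 0, 3.44, 2.25 and 1.22 in the Aid-/- clones. Its strongest region, at 118393249 to 118393804 on chromosome 9 and overlapping a coding exon, had a peak in 7 samples of all 4 groups. Foxa2, a forkhead factor of endoderm, had 3.08, 0, 0 and 0 RPM in the Aid+/+ clones and 1.5, 1.72, 0 and 7.59 in the Aid-/- clones. Sox17, an HMG-box factor of endoderm, had 1.26, 0, 0 and 0 against 1.22, 1.62, 0 and 2.79. Apart from 1.03 RPM at Foxa2 in ES replicate 3, neither gene had a peak in an ES line or a MEF.

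At several loci the iPS clones divided by run rather than by genotype. Sox17, Foxa2, Cdx2 and Hand1 had no peak in any of the 4 iPS clones outside run A, and each had at least 1 peak in all 4 clones of run A. The share of all loci divided in this way was not counted, so these loci have no background to be read against. Cdx2, the factor that first sets the trophoblast apart, showed the division by run most plainly. Its promoter region (chromosome 5, 148117456 to 148119136) had 3.08 RPM in Aid+/+ replicate 1 and 4.13, 2.63 and 5.24 in Aid-/- replicates 1, 2 and 4, with no peak in the other 10 samples. The T promoter region at 8626268 to 8627105 had a peak in the same 4 samples only, with 1.32, 1.41, 1.31 and 2.09 RPM. The Foxa2 promoter had a peak in Aid+/+ replicate 1 and Aid-/- replicate 4, that of Eomes in Aid-/- replicates 2 and 4, that of Gata6 in Aid-/- replicate 4 and that of Sox17 in Aid-/- replicate 1.

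By sample, 3, 4, 3 and 5 of the 10 genes had a promoter peak in the clones of run A, and 0, 0, 1 and 0 in the 4 iPS clones outside it. With peaks of p at most 1e-10 alone, the run A clones had 1, 1, 0 and 1 such genes and the others still 0, 0, 1 and 0. Most of these genes in run A clones thus had only promoter peaks short of that threshold. Over groups the full peak lists gave promoter peaks at 4 genes in Aid+/+ clones and at 7 genes in Aid-/- clones. This difference cannot be told apart from the run, since 3 of the 4 run A clones were Aid-/-. Over all 22380 genes the run A clones had a promoter peak at 11.5% to 13.4%. The other iPS clones had 8.13% to 10.6%, and ES replicate 3, outside run A, had 13.9%. The split was wider at promoters rich in CpGs. Of 6653 promoters rich in CpGs (GC content of at least 50% and observed over expected CpG of at least 0.6), 7.23% to 12.9% had a peak in run A clones and 1.88% to 3.13% in the other iPS clones. Peaks of run A samples only made up 13 of the 53 member regions (24.5%), against 3.30% of all regions, and 7 of the 10 promoter regions were among them. The 3.30% covers regions of any place and CpG content. The same share among all promoter regions was not counted. Duplicates made up 43.9% to 63.7% of tags in the run A clones and 65.5% to 78.7% in the other iPS clones. The part of duplicates in these promoter peaks was not tested. Outside run A, 2 genes had a promoter peak in any sample. These were Elf5, in Aid+/+ replicate 4 and ES replicate 3, and Hand1, in all 3 MEFs.

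**Figure D3:**
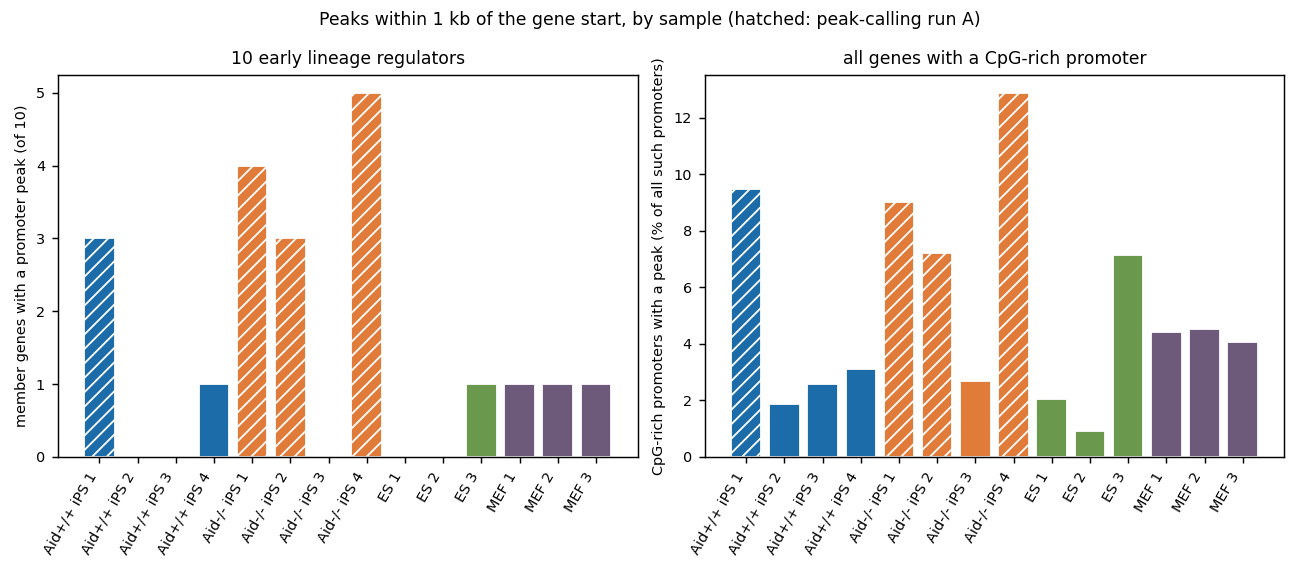
Number of the 10 genes with a peak within 1 kb of the gene start (left) and percent of all 6653 CpG-rich promoters with such a peak (right), by sample. Colours are the groups and hatched bars are the 4 samples of run A. On the left the hatched bars stand at 3 to 5 genes and all others at 0 or 1.

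The comparison of ES lines with Aid+/+ iPS clones asks how near the clones come to cells taken from the embryo. No member locus stood apart, against 0.0834% of 17984 loci higher and 7.41% lower in ES lines over all genes, and no member region had peaks in all of one group and none of the other, against 0.0211% (ES alone) and 0.837% (Aid+/+ iPS alone) of 142099 regions. The region test took in 3 member regions, and both edgeR and DESeq2 called 0 of them, with 0 at an unadjusted edgeR p under 0.05, against 0.0165% of 24299 regions called by edgeR. The ES lines themselves differed widely. Member loci held 8 peaks in ES replicate 1, 5 in replicate 2 and 28 in replicate 3, against 18 to 22 in the Aid+/+ clones.

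Gata4 had 5.67, 2.36 and 28.1 RPM in ES replicates 1, 2 and 3, so that B6 ES lay above every iPS clone and RF8 and MG1.19 below. At Tfap2c B6 ES was again above every iPS clone, with 6.16, 1.01 and 26.7. T had 2.54, 0 and 5.10, where B6 ES was the highest ES line but lay below Aid+/+ replicates 2 and 4. Gata6 had no peak in ES replicates 1 and 2 and 13.5 RPM in replicate 3. Elf5 had 8.61, 3.84 and 16.3. The first Gata4 intron region held 14.6 RPM in B6 ES, more than in any iPS clone, and no peak in the other ES lines. Without ES replicate 3, the loci of Gata4, Gata6, Elf5, Tfap2c and T were all lower in the remaining 2 ES lines than in every Aid+/+ clone. The share of all loci lower in these 2 lines was not counted, so this result has no background to be read against. The exact permutation test of 4 against 2 samples then gave p = 0.133 for each, the smallest p that this design allows. The share of tags in peaks, 54.5% in replicate 3 against 32.7% and 16.7% in replicates 1 and 2, moved with these values, and its part in them was not tested.

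Start sites other than the first added promoter peaks at 4 of the genes, in 1 sample each at Gata4 and Hand1 and in more at Elf5 and T. With 1 kb on either side of any protein-coding transcript start, Elf5 had a promoter peak in 10 samples in place of 3, all 8 iPS clones and 2 ES lines among them, and T in 9 in place of 4. For Elf5 this came from the start at 103264985, which had a peak nearby in 4 Aid+/+ clones, 4 Aid-/- clones, 2 ES lines and 0 MEFs. At T the added samples had their peaks in the body region at 8628576 to 8629464, described above. The mean summit of that region lay 1234 bases past the T start at 8627790. The inner start cluster of Gata4 had a peak in ES replicate 3 alone, and the second start of Hand1 had one in that line besides the 3 MEFs. None of the 3 starts of Tfap2c had a peak within 1 kb in any sample.

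CpG content differed between classes of regions. Promoter windows of 5 of the genes, namely Foxa2, Cdx2, Eomes, Tfap2c and T, were CpG-rich by the definition above, as were 29.7% of all promoters. Those at the annotated gene starts of Gata4 and Elf5 were poor, with 1.35 and 1.10 CpGs per 100 bases, against a median of 3.00 over all genes. Inner starts held more, with 5.15 at the Gata4 cluster (63864085 to 63864108) and 2.45 at the Elf5 start at 103264985. The 9 regions with a peak in all 8 iPS clones held a median of 2.30 CpGs per 100 bases (1.76 to 3.71), close to 2.22 over all merged regions. The 6 regions with a peak in all 3 MEFs and in at most 2 iPS clones held 5.07 (3.87 to 9.76), and the 13 regions of run A alone held 6.79 (5.39 to 7.92). The ranges of the first class and the other two did not overlap. These classes were drawn after the peaks were seen, and no test was made of them.

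**Figure D4:**
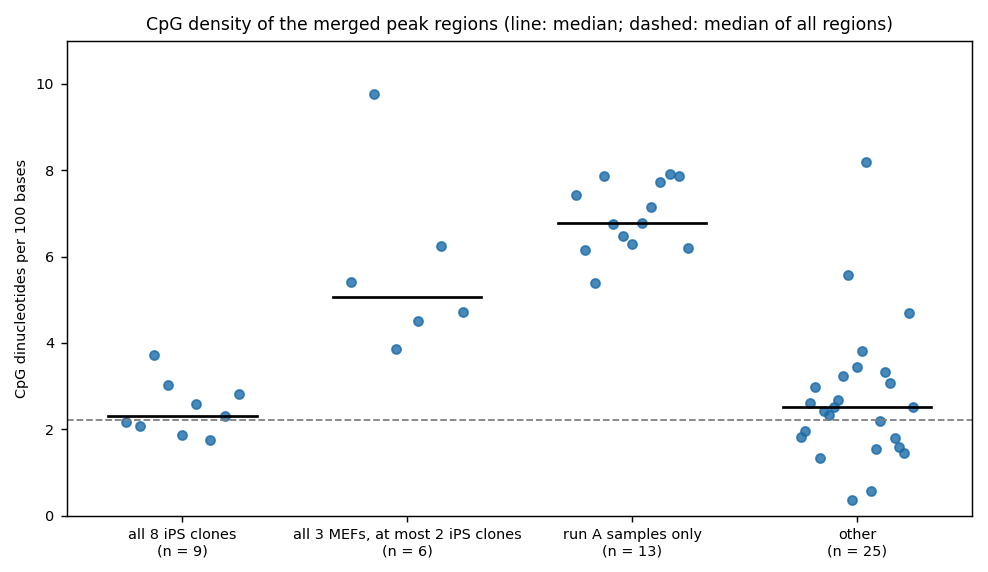
CpG dinucleotides per 100 bases in the 53 merged regions at the 10 genes, by the samples that had a peak there. Each point is a region, the black line is the median of its class, and the dashed line is the median of 2.22 over all merged regions. Regions with a peak in all 8 iPS clones lie at 1.76 to 3.71, below every region of the MEF and run A classes.

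A list of 33 other genes of the same early lineages gave the wider setting. In MEFs against Aid+/+ iPS clones, 30 of the 33 loci had a peak in at least 1 sample. Of these 30, 4 were higher and 14 lower (13 without Fgfr2, whose record is described below). Beside them stand the 6.6% and 58.4% of all loci with a peak given above. The 4 higher loci were Gata2, Gata3 and Tfap2a of the trophoblast list and Gsc of the endoderm list. Gata3, a partner of Cdx2 in the first trophoblast cells, had 16.5 ± 0.974 RPM in MEFs (SD, n = 3) and 4.69 ± 0.607 in Aid+/+ clones (SD, n = 4). Hnf4a, an endoderm and liver factor, was among the lower loci, with 3.66 ± 2.28 against 45.9 ± 11.8. In the region test 13 of 33 tested regions were higher and 6 lower in MEFs by edgeR, beside 5548 higher and 4557 lower of all 23412 (43.2% called), a balance that turned to 1351 and 18464 without TMM. The record of Fgfr2 in this annotation spans 3009 kb because of 1 long transcript, and without it the counts were 4 higher and 2 lower of 11. The 6 were in Msgn1, Gata3 and Gcm1 (higher), Hnf4a (lower) and Wnt3 (1 each way). No locus of the 33 stood apart between the genotypes and 1, Tbx20, did between ES lines and Aid+/+ clones, and 0 regions were called by edgeR in either comparison.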

How the data were processed

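The deposited files were MACS peak lists, 1 per sample, made by the authors from 75 bp reads aligned to mm9 and called without a control at a p-value cutoff of 1e-05. The submitters' notes name CASAVA 1.8.1, BWA 0.5.9rc1 and MACS 1.4.1, and 5 file headers name another MACS version. For each peak the authors' files give a count of tags, a -log10 p-value (times 10) and a fold enrichment over the local background. Peaks were called per sample, so a missing peak means a value under the caller's threshold, and intervals between peaks carry no value.

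Peaks were assigned to genes of the GENCODE annotation on the same build (minimum overlap 1 bp), as promoter, then body, then flank. Peaks of the samples were merged where they overlapped. Loci were compared by whether groups overlapped and by an exact two-sided permutation test of the means (scipy 1.17.1, 30 tests, p-values unadjusted). Regions with a peak in every sample compared were tested on tag counts with edgeR 4.0.16 (quasi-likelihood, TMM, Benjamini-Hochberg adjustment over all such regions), with DESeq2 1.42.0 and limma 3.58.1 as alternatives. The code was tested on simulated data. The members and gene lists were chosen with earlier results of these data known. Regions named by rule were the one with most tags at each gene and promoter regions with a peak in all samples of a group, and the others described were chosen after their values were seen. Depth limits weak peaks: a sample with a peak in a member region held a median of 32 tags there (11 to 227).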

Additional observations from a re-analysis of the deposited data

Results flagged for a closer look

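In the Aid+/+ iPS group, replicate 1 stood far from the other 3 clones at 4 loci, at each of which the others had no peak. Its level was 1.26 RPM at Sox17, 3.08 at Foxa2, 3.08 at Cdx2 and 1.32 at Hand1. This replicate was the Aid+/+ clone of run A, and the 3 Aid-/- clones of that run also had peaks at these loci. Of 22 groups of 4 samples examined in this way 4 were marked. Chance marks about 1 in 20 groups of continuous values, but that rate does not hold here, since any single peak beside 3 clones at 0 is marked.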

How the results depend on the processing

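Between genotypes, 0 loci were apart as reported, and 1 was with total tags as denominator (Elf5, lower), with no flank (Gata6, higher) and with tags in peaks as denominator (Elf5, lower), and 3 were among the samples of run A alone (1 clone against 3). Leaving out 1 clone gave 0 to 1, the 1 being Elf5 without Aid+/+ replicate 1 or Aid-/- replicate 3 and Gata6 without Aid+/+ replicate 2 or Aid-/- replicate 4. For MEFs, the 5 loci apart became 3 with the highest fold enrichment and 3 with an equal number of peaks, 6 with 10 kb flanks (Cdx2 added) and 5 to 6 with 1 sample left out. Covered length turned the Tfap2c difference to 386 bp more in MEFs. With filtered tags as library size and no TMM, edgeR called 4 member regions in place of 0, all lower in MEFs, and the Gata6 region went from a log2 difference of 0.40 to -0.87. Without 1 sample this count was 0 to 1. For ES lines, 1 locus was apart by covered length (T) and 1 with an equal number of peaks (Elf5), and 0 to 5 with 1 sample left out, the 5 without ES replicate 3 and 1 without Aid+/+ replicate 1 (Elf5). The share of all loci apart was not counted under these settings. Without ES replicate 3, 1 region was called (range 0 to 1), and 4 regions had peaks of Aid+/+ clones alone (range 0 to 4). With an equal number of peaks, 1 region in place of 5 had peaks of Aid+/+ clones and not of MEFs. Genes with a promoter peak fell from 8 to 3 at a p-value of 1e-10 and to 2 outside run A. The comparisons of presence, tags in peaks and run exclusion were added after seeing the data. Over the whole genome, edgeR called 0 regions higher and 1 lower between genotypes, against 4 and 20 with DESeq2 and 11 and 5 without Aid+/+ replicate 1. For ES lines it called 3 and 1, against 210 and 113 with DESeq2, 8 and 3 with peak length as offset and 871 and 1601 without ES replicate 3. For MEFs limma on fold enrichment called 1228 and 6158, and edgeR with peak length as offset 4599 and 2084. The cause of these changes was not tested. No pairing by replicate was possible because the replicate numbers only name samples and are not shared by design. Clone series, the number that opens a clone name, was 967 in Aid+/+ clones alone, 981 in Aid-/- clones alone and 979 in both. With series as a covariate, the genotypes are thus compared within series 979 alone. Fits with clone series or run as a covariate were made for the genotypes, and edgeR called 0 member regions in each.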
